A study of Bos taurus with 6 samples.

Results

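The enzymes described here are the cytochrome P450s and the dehydrogenases and reductases of steroids and retinoids, with the proteins that pass electrons to P450s, in cultured bovine granulosa cells (Bos taurus). Members were taken by symbol from probes that carry exactly 1 gene symbol: CYP followed by a digit (CYP51A1 left out), HSD3B, HSD11B, HSD17B, HSDL, DHRS, RDH, AKR1 or SRD5A at the start, or POR, FDX1, FDXR or CYB5A. The rule found 92 probes of 91 genes among the 24415 probes of the arrays, of which 18457 have 1 symbol, and no probe of FDXR. DHRS3 has a pair of probes.

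Granulosa cells surround the oocyte and make estradiol from androgens that theca cells supply. They were aspirated from follicles of 2 to 6 mm, frozen, thawed and cultured with FSH and IGF1 as primary cells with no genetic change. On day 2 of culture cells received LY294002 at 50 μM, which blocks PI3K and so signalling to AKT, and the control cells received DMSO as vehicle. For this step most of the medium was exchanged for one without FSH and IGF1. After 2 h most of it was exchanged again, for one with FSH and IGF1. Cells were analysed on day 4, with 3 arrays of LY294002 and 3 of DMSO. The labels give neither donor animals nor ages, and androstenedione, the substrate of aromatase, was in the medium of both groups.

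P450s are heme enzymes that insert oxygen into a substrate. In the ovary they start steroid synthesis from cholesterol and turn androgens into estrogens. The hydroxysteroid dehydrogenases switch a hydroxyl and a keto group and so turn a weak hormone into a strong one or the reverse. Retinol is handled in the same way: dehydrogenases convert it to retinal and back, aldehyde dehydrogenases make retinoic acid, and P450s of the CYP26 group break that down. Many of these enzymes belong to the short-chain dehydrogenases (HSD11B, HSD17B, RDH, DHRS) or the aldo-keto reductases (AKR1).

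The values are log2 signals of an array, so a difference of 1 is a doubling or a halving. The words rose and fell are kept for members with an adjusted p under 0.05 by limma, over all probes, that differed by at least 1.4-fold, which is 0.49 on the log2 scale. Array medians lay between 4.98 and 5.01. All 10 granulosa markers, such as INHA and FSHR, had a mean signal above 5 in DMSO. None of the 7 oocyte markers did, and 2 of 8 leukocyte markers, 2 of 6 theca markers and 2 of 8 endothelial probes did. PTPRC, the defining leukocyte gene, had a mean of 3.50 in LY294002 and 3.54 in DMSO. The leukocyte markers above 5 were CD68 (5.75 in LY294002, 5.88 in DMSO) and CD14 (5.71 in LY294002, 5.65 in DMSO). The theca markers above 5 were INSL3 (7.17 in LY294002, 8.22 in DMSO) and PTCH1 (6.68 in LY294002, 6.31 in DMSO). PTCH1 was higher by less than 1.4-fold (0.37, adjusted p = 0.0278 by limma). All 7 fibroblast markers were above 5 too. The mean over the fibroblast markers lay between 9.43 and 9.57 on the LY294002 arrays and between 9.27 and 9.33 on the DMSO arrays. That of the granulosa markers lay between 8.67 and 8.74 in LY294002 and between 8.76 and 8.82 in DMSO, and that of the theca markers between 4.68 and 4.79 in LY294002 and between 4.85 and 5.03 in DMSO. Single markers moved more than these means. Of the granulosa markers NR5A2 rose (1.04) while AMH (-0.61), AMHR2 (-0.72) and FOXL2 (-0.75) fell, with limma. Of the fibroblast markers PDGFRA (0.69) and COL1A2 (0.60) rose, and THY1 was higher without passing (0.49, adjusted p = 0.0862). The other 4 fibroblast markers were lower by less than 1.4-fold. They were DCN (-0.29, adjusted p = 0.0454), COL1A1 (-0.17), LUM (-0.05) and COL3A1 (-0.02), and the median over the fibroblast list was -0.02. INSL3 of theca cells (-1.05) and CLDN5 of endothelium (-0.53) fell. The part of these shifts in the results was not tested. In RNA from whole cultures, fewer cells of a type and less RNA per cell cannot be told apart.

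With LY294002, more of these genes fell than rose. Of the 92 probes 13 fell, 4 rose and 75 did not pass, so that 18.5% were called, where 5.96% of all probes on the arrays were. Over all probes 3.38% fell and 2.58% rose. The probes that fell belong to CYP19A1, CYP27A1, CYP27B1, CYP4V2, CYP2C87, CYP2D14, HSD11B1, HSD17B14, AKR1A1, DHRS1, DHRS9 and DHRS3, the last with both of its probes. Those that rose belong to CYP11A1, HSD17B11, RDH11 and RDH16. At any fold change 15 were lower and 8 higher, which is 25%, compared with 13.3% of all probes. Members had a median log2 fold change of -0.04 and all probes one of 0.02 (37 members were higher and 55 lower). Without regard to sign, the median change was 0.16 over the members and 0.14 over all probes, and above signal 5 it was 0.25 over the members and 0.16 over all probes. The values of the groups lay apart, without overlap, for 37 of the 92 probes (40.2%), compared with 32.7% of all probes.

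A total of 43 members had a mean above log2 signal 5 in DMSO, which is 46.7% of them, compared with 49.8% of all probes. They are POR, FDX1 and CYB5A, the P450 genes CYP11A1, CYP19A1, CYP27A1, CYP39A1, CYP26B1, CYP4V2, CYP2U1, CYP20A1 and CYP1B1, both HSD3B genes, all 3 HSD11B genes, HSD17B12, HSD17B4, HSD17B10, HSD17B7, HSD17B8, HSD17B11 and HSD17B14, both HSDL genes, SRD5A1 and SRD5A3, AKR1B1 and AKR1A1, RDH11, RDH14, RDH10 and RDH13, and DHRS4, DHRS3 with both probes, DHRS1, DHRS11, DHRS7B, DHRS12, DHRS9 and DHRSX. Just inside this limit lay CYP26B1 with a mean of 5.30 in DMSO, and just outside it HSD17B1 with 4.94. Only 9 of the 41 P450 probes lay above it. Of the 43, 10 fell and 3 rose (30.2%), while 9.88% of all probes above 5 were called, 5.86% lower and 4.02% higher. Of the 49 dimmer members 3 fell and 1 rose (8.16%), compared with 2.07% of all probes at or under 5. With LY294002, HSD17B14 and DHRS9 sank under a mean of 5, and no member crossed the limit upwards.

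**Figure D1:**
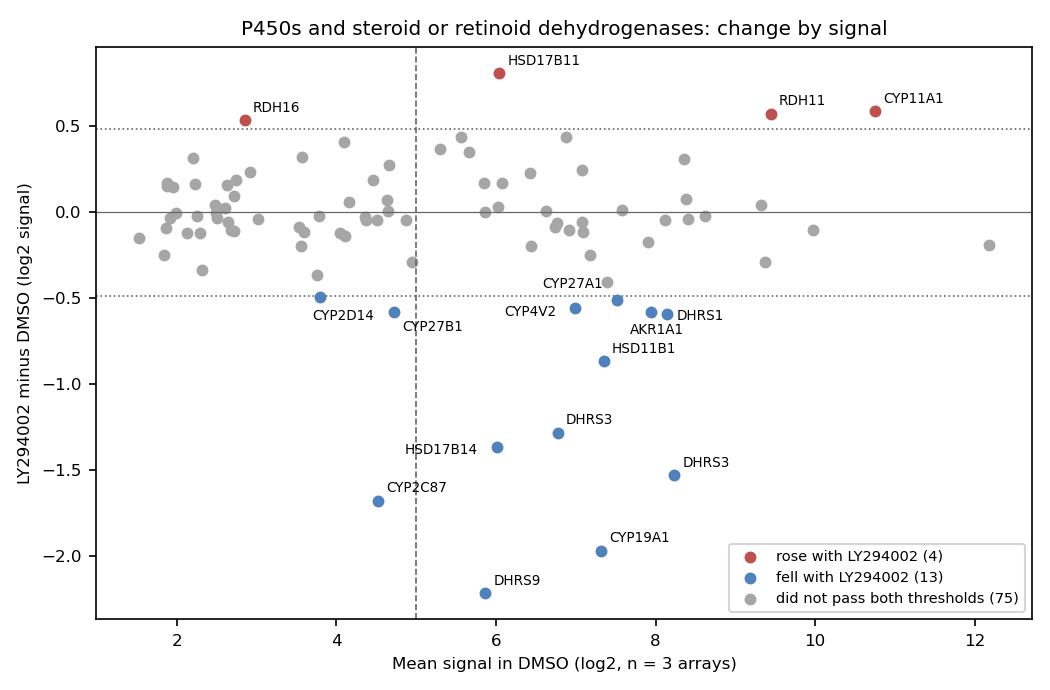
Mean log2 signal in DMSO (x axis, n = 3 arrays) and LY294002 minus DMSO (y axis, log2) for the 92 probes. The dashed line marks signal 5 and the dotted lines mark 1.4-fold. The 13 that fell reach down to -2.21 (DHRS9), and the 4 that rose reach up to 0.81 (HSD17B11).

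Of the P450s of steroid synthesis, CYP11A1 and CYP19A1 moved in opposite directions. CYP19A1 encodes aromatase, which turns androgens into estrogens. Its signals were 5.5, 5.36 and 5.17 in LY294002, against 7.28, 7.31 and 7.34 in DMSO. The DMSO arrays lay within 0.06 of each other and the LY294002 arrays spread more widely, without coming near them. The difference on the log2 scale came to -1.97 (SE 0.09, adjusted p = 0.000243), and this fall ranked 22 among the 18457 probes with 1 symbol. CYP11A1, the mitochondrial enzyme that cuts the side chain of cholesterol to make pregnenolone, had signals of 11.34, 11.31 and 11.35 in LY294002, against 10.70, 10.67 and 10.86 in DMSO. Each LY294002 array was above each DMSO array, with a log2 fold change that came to 0.59 (SE 0.07, adjusted p = 0.00416). Leaving out any single array kept both calls, with CYP19A1 between -2.05 and -1.88 and CYP11A1 between 0.55 and 0.65.

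CYP17A1, which theca cells use to make androgens, was dim in both groups. Its signals were 2.75, 3.15 and 3.04 in LY294002 and 2.96, 3.12 and 2.98 in DMSO, and they overlapped (log2 fold change -0.04, 95% interval -0.32 to 0.24). HSD3B1, which turns pregnenolone into progesterone, had signals of 11.98, 11.99 and 12.01 in LY294002, against 12.20, 12.19 and 12.16 in DMSO. The groups did not overlap, but the difference was small (-0.19, 95% interval -0.32 to -0.06, adjusted p = 0.0757). Over the alternatives its adjusted p ran between 0.000322 and 0.187, under 0.05 for instance with quantile normalization (-0.28, adjusted p = 0.0287), and the difference stayed under 1.4-fold in all of them. Its relative HSD3B7, an enzyme of bile acid synthesis, had a difference of the same size (-0.19, adjusted p = 0.199), with overlapping values.

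None of the 3 electron partners reached 1.4-fold with limma. FDX1, the ferredoxin that feeds electrons to CYP11A1 and other mitochondrial P450s, had signals of 8.63, 8.63 and 8.74 in LY294002, against 8.37, 8.39 and 8.31 in DMSO. All LY294002 arrays were higher, with a difference of 0.31 (SE 0.06, adjusted p = 0.0262), which stayed under 1.4-fold. With each array left out in turn, the adjusted p of FDX1 lay between 0.0635 and 0.0874. The replicate number as a block in limma gave an adjusted p = 0.0967. POR, the reductase that serves P450s of the endoplasmic reticulum, aromatase included, had 9.90, 9.87 and 9.83 in LY294002 and 9.92, 10.00 and 9.98 in DMSO. Its difference of -0.10 did not pass the test (95% interval -0.24 to 0.04, adjusted p = 0.351), although the groups lay just apart. CYB5A, a cytochrome that aids CYP17A1, overlapped between the groups (-0.05, 95% interval -0.23 to 0.13).

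The HSD17B family of 12 genes held 1 member that rose, 1 that fell and 10 that did not pass. That is 16.7% called, compared with 5.96% of all probes and 9.88% of those above signal 5 in DMSO, where 7 of the 12 lay. HSD17B1, which reduces estrone to estradiol, had signals of 4.57, 4.65 and 4.74 in LY294002, against 4.87, 5.01 and 4.95 in DMSO. The groups lay apart, and the difference of -0.29 (95% interval -0.47 to -0.11, adjusted p = 0.0495) was below 1.4-fold. A plain analysis of variance gave HSD17B1 an adjusted p = 0.0715. In limma it was 0.0833 with an intensity trend and robust estimation, 0.0974 with the replicate number as a block and 0.0337 with quantile normalization. HSD17B2, which catalyses the opposite step, was dim, with a difference of 0.32 that did not pass (adjusted p = 0.169).

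HSD17B14, which in human oxidises estradiol in the test tube, had signals of 4.74, 4.36 and 4.82 in LY294002, against 5.85, 6.07 and 6.10 in DMSO. This was a fall of 2.58-fold (log2 fold change -1.37, SE 0.14, adjusted p = 0.0021). The groups lay more than 1 log2 unit apart, and the call was kept with each array left out. HSD17B11, an enzyme of lipid droplets in human cells, had 6.84, 6.85 and 6.86 in LY294002, against 6.19, 6.19 and 5.74 in DMSO. The LY294002 arrays were alike, while DMSO replicate 3 stood below the other DMSO arrays. The log2 fold change of 0.81 (SE 0.13, adjusted p = 0.0107) became 0.66 without that array, and the call remained with each array left out. A plain analysis of variance without moderation did not keep it (adjusted p = 0.0512).

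HSD17B8, a subunit of the enzyme for mitochondrial fatty acid synthesis, had signals of 7.44, 7.30 and 7.21 in LY294002, against 6.81, 7.02 and 6.80 in DMSO. All LY294002 arrays were higher, but the difference of 0.44 (adjusted p = 0.0282) was under 1.4-fold. It exceeded 1.4-fold without DMSO replicate 2 (0.51, adjusted p = 0.0336). The remaining bright members work mainly outside sex steroids: HSD17B12 in fatty acid elongation, HSD17B4 in peroxisomal oxidation, HSD17B10 in mitochondria and HSD17B7 in cholesterol synthesis. Their differences lay between -0.04 (HSD17B4) and 0.08 (HSD17B10), and their 95% intervals, between -0.21 and 0.21, lay within 1.4-fold. HSD17B3, HSD17B6 and HSD17B13 had signals between 1.73 and 2.45 on all arrays and did not pass.

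The glucocorticoid pair was split. HSD11B1, which regenerates active cortisol from cortisone, had signals of 6.67, 6.48 and 6.31 in LY294002, against 7.25, 7.34 and 7.46 in DMSO. The difference on the log2 scale came to -0.86 (SE 0.11, adjusted p = 0.00463). HSD11B2, which inactivates cortisol, had 6.04, 5.94 and 6.00 in LY294002, against 5.34, 5.64 and 5.69 in DMSO. The groups lay apart here too, in the other direction, with a difference of 0.44 (SE 0.10, 95% interval 0.19 to 0.69, adjusted p = 0.0399) that stayed under 1.4-fold. HSD11B1L, a relative of HSD11B1, overlapped between the groups (-0.12, adjusted p = 0.366).

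**Figure D2:**
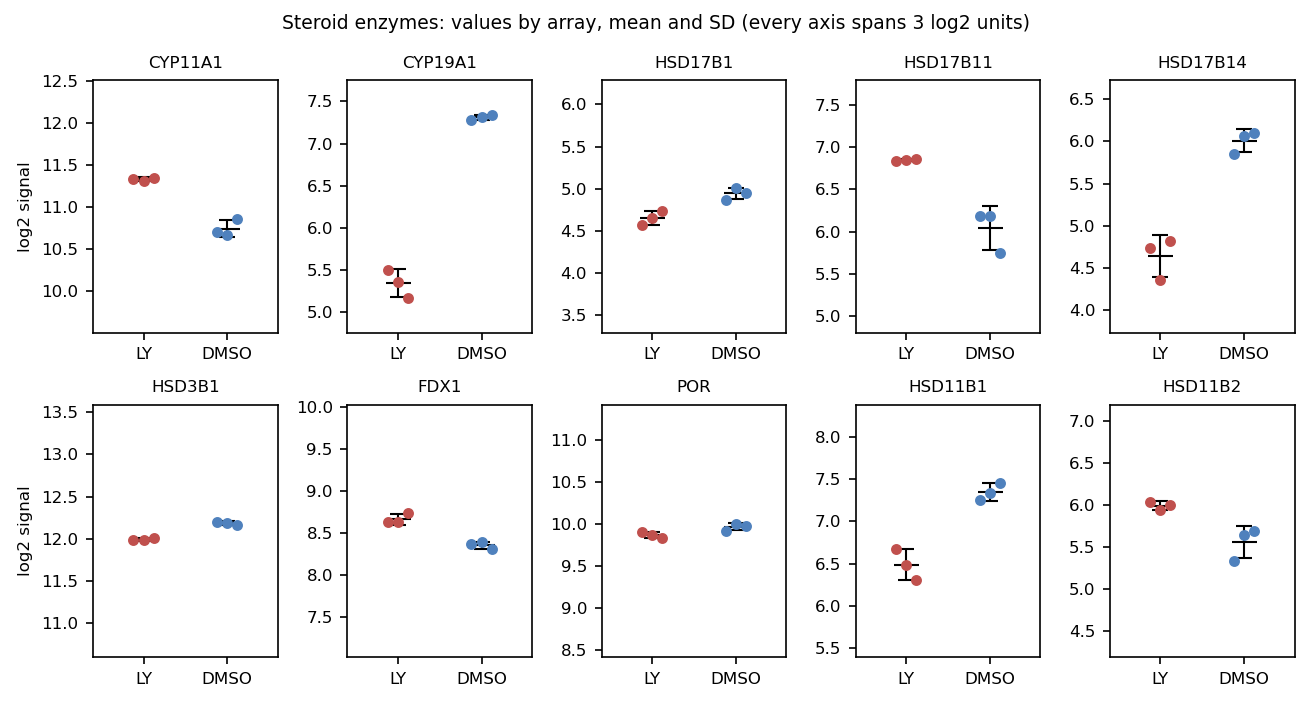
Log2 signals on each array (points), with mean and SD (lines, n = 3), in LY294002 (left) and DMSO (right) for 10 steroid enzyme and partner genes, each axis spanning 3 log2 units. CYP19A1, HSD17B14 and HSD11B1 fell and CYP11A1 and HSD17B11 rose, while HSD3B1, FDX1, POR, HSD17B1 and HSD11B2 stayed under 1.4-fold.

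Among P450s of sterols, bile acids and vitamin D, 2 of 9 fell and 7 did not pass (22.2% called, compared with 5.96% of all probes). Above signal 5 in DMSO, where 2 of the 9 lay, 9.88% of all probes were called, and at or under it 2.07%. By the unadjusted p of limma, 3 lower and 1 higher gene lay under 0.05, as did 27.5% of all probes, 13.8% lower and 13.7% higher. CYP27A1, the mitochondrial sterol hydroxylase, had signals of 7.08, 7.02 and 6.91 in LY294002, against 7.55, 7.54 and 7.45 in DMSO. The fall was 1.42-fold (log2 fold change -0.51, SE 0.07, adjusted p = 0.00681), close to the fold threshold, and it was under that threshold without LY294002 replicate 3 (-0.46). CYP39A1, which hydroxylates an oxysterol, had 6.01, 6.09 and 5.92 in LY294002, against 5.77, 5.66 and 5.54 in DMSO. It was higher on each LY294002 array, with a difference of 0.35 (adjusted p = 0.042) under 1.4-fold. A plain analysis of variance gave an adjusted p = 0.0831. In limma it was 0.0748 with the replicate number as a block and 0.033 with quantile normalization.

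CYP27B1, which makes the active form of vitamin D, was dim, with signals of 3.92, 4.36 and 4.14 in LY294002, against 4.78, 4.62 and 4.76 in DMSO. Its fall (-0.58, SE 0.12, adjusted p = 0.0256) had the highest adjusted p of the 17 calls. It was lost without LY294002 replicate 1 (-0.47, adjusted p = 0.0523), LY294002 replicate 3 (adjusted p = 0.0805) and DMSO replicates 1, 2 and 3 (adjusted p = 0.0787, 0.0558 and 0.0809), and without moderation of the variances (adjusted p = 0.0829). CYP24A1, which degrades vitamin D, was dim and overlapped between the groups (0.19, adjusted p = 0.462), as did CYP2R1, which starts its activation (-0.10, adjusted p = 0.691). CYP7B1, another oxysterol hydroxylase, had signals between 3.18 and 3.61 in LY294002 and between 3.67 and 3.85 in DMSO (-0.36, adjusted p = 0.0994). The liver enzymes CYP7A1 and CYP8B1 had signals under 3 on all arrays.

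Among retinoid enzymes, DHRS3 and DHRS9 fell and RDH11 and RDH16 rose. DHRS9, a dehydrogenase that in human acts on retinol and on 3-alpha-hydroxysteroids, had signals of 3.83, 3.67 and 3.46 in LY294002, against 5.79, 5.78 and 6.03 in DMSO. This was a fall of 4.64-fold (log2 fold change -2.21, SE 0.12, adjusted p = 0.000357), the largest of all 92 probes and rank 14 among falls of probes with 1 symbol. DHRS3, which reduces retinal to retinol and so limits the supply for retinoic acid, fell on both of its probes. The brighter (12734323) had 6.66, 6.73 and 6.74 in LY294002, against 8.19, 8.21 and 8.31 in DMSO, and differed by -1.53 on the log2 scale (SE 0.07, adjusted p = 0.000174). The dimmer (12734319) had 5.62, 5.48 and 5.38 in LY294002, against 6.77, 6.95 and 6.60 in DMSO, and differed by -1.28 on the log2 scale (SE 0.11, adjusted p = 0.00135). The probes of DHRS3 both showed the fall, and all 3 calls of this paragraph were kept with each array left out.

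RDH10, which oxidises retinol to retinal and acts together with DHRS3, did not pass. Its signals were 7.02, 6.98 and 7.06 in LY294002 and 7.03, 6.97 and 7.22 in DMSO, with a difference of -0.05 whose 95% interval of -0.25 to 0.14 lay within 1.4-fold. RDH11, a reductase of retinal, rose, with 10.05, 9.99 and 10.01 in LY294002, against 9.47, 9.44 and 9.42 in DMSO. The arrays of each group lay within 0.06 of each other, and the difference came to 0.57 on the log2 scale (SE 0.06, adjusted p = 0.00209).

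RDH16, a retinol dehydrogenase known from human liver, rose at a dim signal, with 3.38, 3.42 and 3.36 in LY294002, against 2.88, 2.73 and 2.94 in DMSO (log2 fold change 0.54, SE 0.07, adjusted p = 0.00657). Without DMSO replicate 2 it stayed under 1.4-fold (0.48, adjusted p = 0.0213). RDH14 was lower on each LY294002 array, but its difference of -0.25 (adjusted p = 0.11) did not pass. RDH12, a photoreceptor enzyme, had a difference of 0.41 (adjusted p = 0.153), with overlapping signals between 3.86 and 4.67. RDH13, RDH5 and RDH8, of which RDH5 and RDH8 are known from the visual cycle, overlapped between the groups, and their 95% intervals lay within 1.4-fold.

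Of the enzymes that degrade retinoic acid, CYP26B1 was the only one above signal 5, with 5.61, 5.68 and 5.72 in LY294002, against 5.37, 4.99 and 5.54 in DMSO. The groups lay apart by a narrow margin and the DMSO arrays spread widely. The difference of 0.37 was under 1.4-fold and did not pass (95% interval 0.03 to 0.71, adjusted p = 0.146), and the interval reached past 1.4-fold. CYP26A1 and CYP26C1 had signals between 3.26 and 3.82 and overlapped, as did CYP27C1, a retinoid desaturase, at 2.42 to 3.01.

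**Figure D3:**
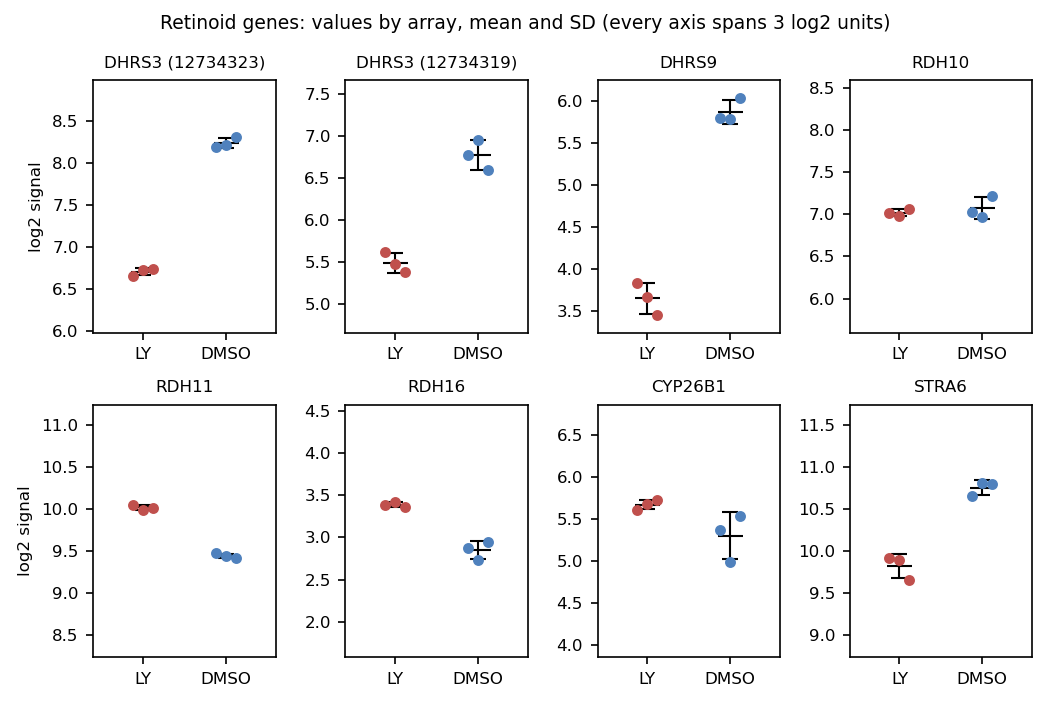
Log2 signals on each array (points), with mean and SD (lines, n = 3), in LY294002 (left) and DMSO (right) for retinoid genes, each axis spanning 3 log2 units. Both DHRS3 probes, DHRS9 and the retinol carrier receptor STRA6 fell, RDH11 and RDH16 rose, and RDH10 and CYP26B1 did not pass.

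The other DHRS members, mostly carbonyl reductases, moved less. DHRS1, of the endoplasmic reticulum, had signals of 7.56, 7.58 and 7.50 in LY294002, against 8.21, 8.06 and 8.14 in DMSO, a fall of 1.51-fold (log2 fold change -0.59, SE 0.07, adjusted p = 0.0032). DHRS11, which in human reduces 17-ketosteroids, had 7.03, 7.10 and 6.82 in LY294002, against 7.32, 7.41 and 7.43 in DMSO. It was lower on each LY294002 array, but its difference of -0.40 (adjusted p = 0.0316) was under 1.4-fold. DHRS4, a carbonyl reductase of peroxisomes, had 9.38, 9.33 and 9.39 in LY294002 and 9.28, 9.33 and 9.37 in DMSO, an overlap. Its 95% interval of -0.10 to 0.18 and those of DHRS7B, DHRS12, DHRSX, DHRS13 and DHRS7C lay within 1.4-fold. DHRS7 spread between 3.58 and 4.53 in LY294002 and between 3.97 and 4.27 in DMSO, and its interval reached past 1.4-fold.

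Of the aldo-keto reductases, AKR1A1 fell. This aldehyde reductase had signals of 7.49, 7.30 and 7.29 in LY294002, against 7.82, 7.93 and 8.06 in DMSO (log2 fold change -0.58, SE 0.09, adjusted p = 0.0108). Its call was lost with the replicate number as a block in limma (adjusted p = 0.055). AKR1B1, aldose reductase, which reduces glucose to sorbitol, had 9.07, 8.97 and 9.21 in LY294002, against 9.38, 9.38 and 9.35 in DMSO. All LY294002 arrays were lower, but the difference of -0.29 did not pass (95% interval -0.47 to -0.10, adjusted p = 0.0586). AKR1C3, a 17-ketosteroid reductase in human, and the bile acid enzyme AKR1D1 had signals between 2.26 and 3.02 and overlapped. AKR1B10 and AKR1E2 did not pass either.

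None of the 5-alpha-reductase or HSDL probes passed the thresholds, with limma or with the plain analysis of variance, but 2 of these 5 probes were higher and 1 was lower at an unadjusted p under 0.05, which 27.5% of all probes had. SRD5A1, which makes dihydrotestosterone, had 6.17, 6.34 and 6.22 in LY294002 and 5.84, 6.12 and 6.26 in DMSO, an overlap (0.17, adjusted p = 0.423). SRD5A3, which works in dolichol synthesis, was higher on each LY294002 array (0.23, adjusted p = 0.11). SRD5A2 had signals between 1.83 and 2.04. HSDL1 was higher (0.25, adjusted p = 0.0821) and HSDL2 lower (-0.17, adjusted p = 0.146), each without overlap between the groups.

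Among fatty acid P450s, 1 of 7 fell (14.3% called, compared with 5.96% of all probes). Above signal 5 in DMSO, where 2 of the 7 lay, 9.88% of all probes were called, and at or under it 2.07%. CYP4V2, which hydroxylates the ends of fatty acids, had signals of 6.61, 6.26 and 6.45 in LY294002, against 7.13, 6.87 and 6.98 in DMSO (log2 fold change -0.55, SE 0.11, adjusted p = 0.0245). Its call was lost without LY294002 replicate 2 (-0.46, adjusted p = 0.0668), LY294002 replicate 3 (adjusted p = 0.0763), DMSO replicate 1 (adjusted p = 0.0711) and DMSO replicate 3 (adjusted p = 0.0718), and without moderation of the variances (adjusted p = 0.0775). CYP2U1, another fatty acid hydroxylase, overlapped between the groups (-0.10, 95% interval -0.31 to 0.10).

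Of 18 P450 probes of foreign compounds and of unknown substrates, 2 fell, both dim (11.1% called, compared with 5.96% of all probes). Only 2 of the 18 lay above signal 5 in DMSO, and of all probes at or under 5, 2.07% were called. CYP2C87, of the large CYP2C family of drug-metabolising enzymes, had signals of 2.93, 2.60 and 2.99 in LY294002, against 4.31, 4.53 and 4.71 in DMSO. The gap between the groups exceeded the spread within either of them. The difference on the log2 scale came to -1.68 (SE 0.14, adjusted p = 0.00131), rank 32 among falls, and it stayed between -1.78 and -1.56 with any array left out. The 6 other CYP2C probes had means between 1.84 and 2.48 in DMSO and log2 fold changes between -0.34 and 0.15, and none of these passed with limma or without moderation. By the unadjusted p of limma, CYP2C281 alone lay under 0.05 (log2 fold change -0.25, adjusted p = 0.114). The files do not show whether the CYP2C87 probe also binds RNA of its relatives.

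CYP2D14 had 3.29, 3.31 and 3.32 in LY294002, against 3.80, 3.92 and 3.67 in DMSO, a fall at the edge of the fold threshold (log2 fold change -0.49, SE 0.08, adjusted p = 0.011). It was under 1.4-fold without LY294002 replicate 1 (-0.48) and without DMSO replicate 2 (-0.43). Its neighbour CYP2D43 overlapped between the groups (-0.05). CYP1B1, which oxidises estradiol and aromatic hydrocarbons, had 5.75, 5.98 and 5.85 in LY294002 and 5.76, 6.00 and 5.81 in DMSO. These values are alike, with a difference of 0.00 and a 95% interval of -0.22 to 0.23. CYP20A1, whose substrate is not known, had a difference of -0.06 (95% interval -0.22 to 0.09), and CYP1A1 was dim (-0.19, adjusted p = 0.387).

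**Figure D4:**
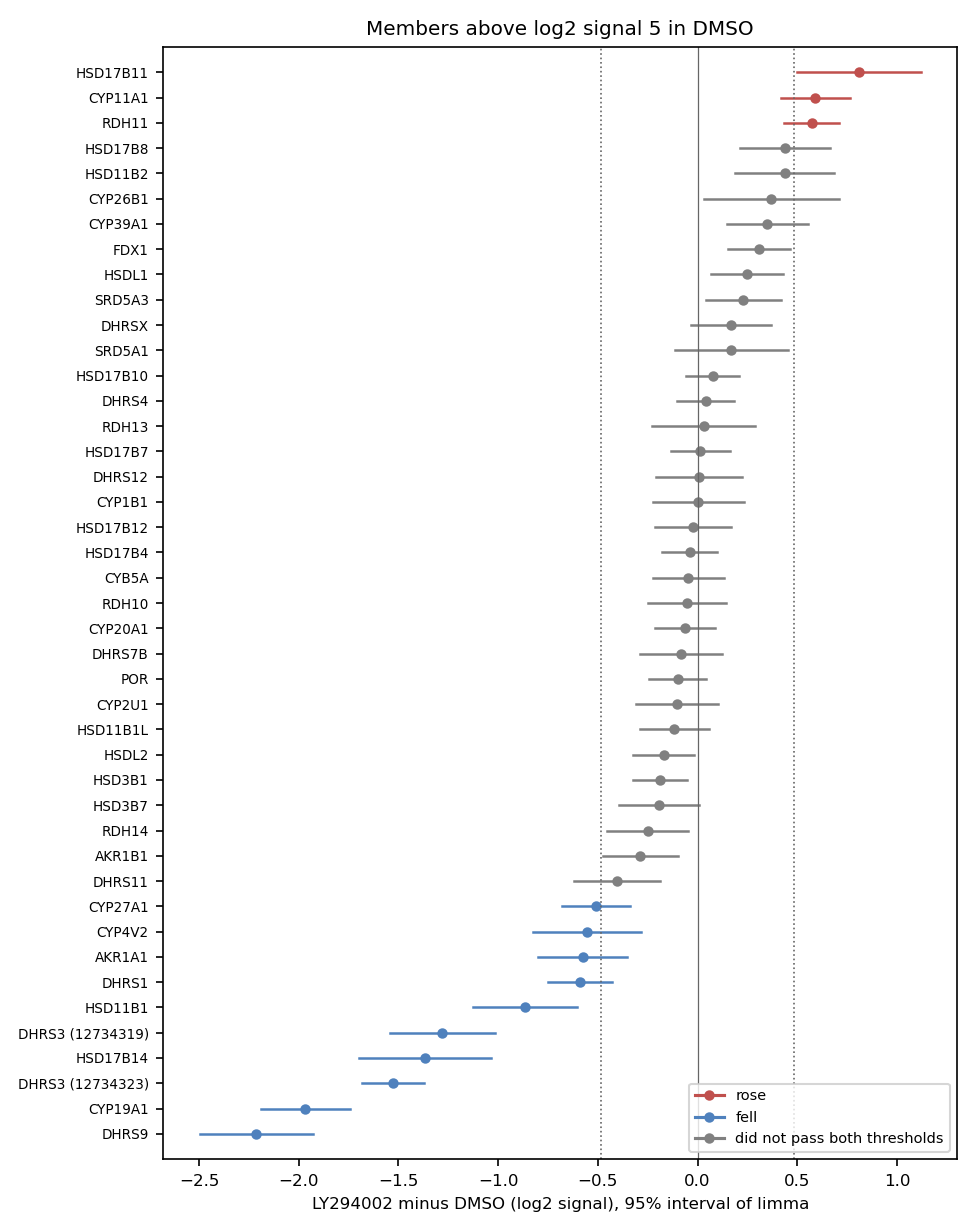
LY294002 minus DMSO (x axis, log2) with the 95% interval of limma for the 43 probes above signal 5 in DMSO, the dotted lines marking 1.4-fold. The 3 that rose stand at the top and the 10 that fell at the bottom. Of the 30 between them 25 have intervals inside 1.4-fold in both directions.

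The intervals show which uncalled members were measured within 1.4-fold and which could have differed by more. They hold only the spread between arrays, not how well a probe follows its RNA. Of the 30 members above signal 5 that were not called, 25 had a 95% interval within 1.4-fold in both directions. The other 5 were HSD17B8, HSD11B2, CYP39A1, CYP26B1 and DHRS11, of which all but CYP26B1 had an adjusted p under 0.05. Of the 45 dimmer members that were not called, 29 had such an interval and 16 did not. The median half-width of the interval was 0.19 for the bright and 0.30 for the dim members.

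In the gene order of the RefSeq table for assembly ARS-UCD2.0, 19 pairs of members had at most 1 protein-coding gene between them. Of these, 13 had neither gene called, 6 had 1 gene called and 0 had both by limma, where 18.5% of all members were called. RDH11 rose next to RDH12, which had a difference of 0.41 and did not pass. HSD17B11 rose next to HSD17B13, which was dim (0.17, adjusted p = 0.378). CYP2C87 fell between CYP2C90 (-0.34, adjusted p = 0.326) and CYP2C85 (0.15, adjusted p = 0.633).

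Among 20 measured genes of steroid synthesis regulators and sterol supply, 2 rose, 1 fell and 17 did not pass (15.0% called, median log2 fold change 0.00). Of all probes 5.96% were called, and 9.88% of those above signal 5 in DMSO, where 14 of the 20 lay. NR5A2, a nuclear receptor that activates steroid enzyme genes, rose, with a mean of 10.30 in LY294002 and 9.26 in DMSO (log2 fold change 1.04, adjusted p = 0.000371). NR4A1, a nuclear receptor induced by gonadotropins, rose as well (0.50, adjusted p = 0.0192), but its call was lost without LY294002 replicate 1 or 2 or DMSO replicate 1 or 2 (adjusted p = 0.0631, 0.0703, 0.0545 and 0.0598). FOXL2, a transcription factor of granulosa cells, fell (-0.75, adjusted p = 0.00394). SCARB1, the receptor that takes up cholesterol from HDL, was higher by 0.32 (adjusted p = 0.0201), under 1.4-fold. LHCGR, the receptor of LH, was dim and lower on each LY294002 array, and its difference of -0.53 missed the threshold (adjusted p = 0.0552), though it passed without LY294002 replicate 2 (-0.66, adjusted p = 0.0421). NR5A1, the closest relative of NR5A2, did not pass (-0.19, adjusted p = 0.127). The probe of STAR, the cholesterol carrier of mitochondria, bears several gene names and is not reported.

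Of 16 measured genes of retinoid handling outside the dehydrogenases, 1 fell and 15 did not pass (6.25% called, median -0.01). This share was near the 5.96% of all probes that were called. By the unadjusted p of limma, 4 lower and 2 higher genes of the 16 lay under 0.05, as did 27.5% of all probes. STRA6, the cell surface receptor that takes up retinol from its plasma carrier, had signals of 9.91, 9.89 and 9.66 in LY294002, against 10.65, 10.81 and 10.79 in DMSO. The groups lay far apart relative to their spread, and the log2 fold change was -0.93 (adjusted p = 0.00199). CRABP2, which carries retinoic acid to the nucleus, had means of 10.84 in LY294002 and 10.61 in DMSO (0.24, adjusted p = 0.0805). RARA, a retinoic acid receptor, was lower by less than 1.4-fold (-0.31, adjusted p = 0.024). ALDH8A1, an aldehyde dehydrogenase, passed both thresholds only without LY294002 replicate 1 (-0.49, adjusted p = 0.0267). ALDH1A1, ALDH1A2 and ALDH1A3, which make retinoic acid, had means under 4 in both groups and did not pass.

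A list of 13 receptors and partner genes of xenobiotic and sterol metabolism also holds the enzyme NQO1. Of these, 3 fell and 10 did not pass (23.1% called, compared with 5.96% of all probes, median -0.01). Above signal 5 in DMSO, where 7 of the 13 lay, 9.88% of all probes were called. The 3 were NQO1 and a pair of receptors. NR1H3, the oxysterol receptor LXR alpha, fell with a log2 fold change of -0.79 (adjusted p = 0.0032). NR1H4, the bile acid receptor, fell at a dim signal (-0.56, adjusted p = 0.0217). The call of NR1H4 was lost without LY294002 replicate 1 or 3 or DMSO replicate 1 or 3 (adjusted p = 0.0675, 0.072, 0.0522 and 0.0518). NQO1, a quinone reductase, fell too (-0.54, adjusted p = 0.00874), but not with the replicate number as a block in limma (adjusted p = 0.0506). AHR, the receptor that induces CYP1 genes, did not pass (-0.16, adjusted p = 0.358). VDR, the vitamin D receptor, had a mean of 3.81 in LY294002 and 4.49 in DMSO, and its difference of -0.68 did not pass (adjusted p = 0.0859), though robust estimation with an intensity trend gave an adjusted p = 0.0296.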

How the data were processed

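RNA of 3 LY294002 and 3 DMSO cultures was hybridized by the authors to 6 Bovine Gene 1.0 ST arrays and processed in Transcriptome Analysis Console 4.0. The authors deposited RMA values on the log2 scale. RMA removes background, brings the arrays to a common distribution and gives 1 value for each transcript cluster, here named a probe. The version of RMA and the genome build are not given in the sources used here, so no coordinates are given. Background correction cannot be varied from summarized values, and the number of arrays limits the precision.

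Probes were named from the platform table. The gene IDs of all 92 members matched RefSeq, with 0 symbols changed. The groups were compared with limma 3.58.1 (lmFit, then eBayes) under R 4.3.3, two-sided, with no covariate and with Benjamini-Hochberg adjustment over 24415 probes. The thresholds of the methods were used, 0.05 for the adjusted p and 1.4 for the fold change. The test was tried on simulated arrays with independent noise for each probe, which cannot show effects shared by a culture or a day. The methods describe biological replicates as cultures of cells collected on different days, but the labels tie no replicate number to a day, so p-values measure the spread between these samples.

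Members and lists were chosen with earlier results of these data known. Named members are the called ones, those of the steroid hormone pathway, and in each enzyme class the pair with the highest signals and the one with the largest change. Other members, not all of them, are named as examples and were chosen after their values were seen. In the pathway lists, called genes and examples are named, the examples likewise chosen afterwards. Alternatives were a plain analysis of variance, the replicate number as a block, an intensity trend with robust estimation, quantile normalization, centring on medians, filters on dim probes and on symbols, other thresholds, the mean of the probes of a gene, and leaving out each array. No sequence was printed, since no sequence table was used.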

Additional observations from a re-analysis of the deposited data

How the results depend on the processing

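The count of members that rose was 4 and of those that fell 13. At 1.5-fold 2 rose and 8 fell, and at any fold change 8 were higher, since members between these limits changed side. Without moderation of the variances, 3 rose and 11 fell, with HSD17B11 (adjusted p = 0.0512), CYP27B1 and CYP4V2 lost. With each array left out in turn, 4 to 6 rose and 10 to 12 fell, and 12 of the 17 called probes were kept in every case. In the same fits the count of called genes ranged from 2 to 3 for steroid synthesis regulators, from 1 to 2 for retinoid handling and from 2 to 3 for receptors and partners. An intensity trend with robust estimation gave 4 for the first list, with LHCGR gained, and 4 for the last, with VDR gained, and leaving out dim probes or probes without exactly 1 symbol also gave 4 for the first. At any fold change 6 of the first list and 3 of the second passed, and at 1.5-fold 1 of the third. Over all probes 3249 passed at any fold change, compared with 1454. Between 42 and 51 members lay above the signal limit when it was set at 4.5 or 5.5 or required on every DMSO array. The replicate number as a block left 4 that rose and 11 that fell, with CYP27B1 (adjusted p = 0.0794) and AKR1A1 (adjusted p = 0.055) lost, and 1 called receptor or partner, with NQO1 (adjusted p = 0.0506) and NR1H4 (adjusted p = 0.0593) lost. NR4A1 (adjusted p = 0.0758) was lost there too. Same-numbered arrays deviated from their group means with correlations between -0.04 and -0.02, which showed no pairing. These correlations were taken over all probes, dim ones included. They do not settle whether same-numbered arrays share a collection day. No called member changed sign under any of these settings. Among members named by the rule, 570 of the values under alternatives stayed on the same side of the thresholds, 25 lost the call and 3 gained it. Of the other members HSD17B8, HSD11B2 and DHRS11 gained a call at any fold change, and HSD17B8, CYP2B6 and CYP4A59 without DMSO replicate 2. Quantile normalization, centring and an intensity trend left the counts of members at 4 and 13. Dim members were measured less precisely, with a median half-width of the 95% interval of 0.30 for uncalled members at or under signal 5 and of 0.19 above it.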

Other observations

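Some probes that carry several names include a gene of these families, 6 in all, and 0 of them passed the thresholds with limma. Probes that bear the name CYP21A2, the 21-hydroxylase of the adrenal gland, had means of 2.81 in LY294002 and 2.83 in DMSO on one and of 4.5 in LY294002 and 4.40 in DMSO on the other. The brightest of the 6 is shared by CYP39A1 and ATF6, with means of 7.34 in LY294002 and 7.11 in DMSO (log2 fold change 0.23, adjusted p = 0.0684).

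DMSO replicate 2 stood above both other DMSO arrays for the dim probes of CYP2B6 (2.54, 3.52 and 2.71 in DMSO replicates 1, 2 and 3) and CYP4A59 (1.94, 2.68 and 1.98). Without it both passed the thresholds, with log2 fold changes of 0.54 (adjusted p = 0.0354) for CYP2B6 and 0.56 (adjusted p = 0.0142) for CYP4A59. With all arrays the values were 0.24 (adjusted p = 0.61) and 0.32 (adjusted p = 0.366).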
